A study of Xenopus laevis with 17 samples.

Results

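The kinesin-2 and dynein-2 motor genes were followed in Xenopus laevis animal caps, explants of prospective ectoderm from the frog embryo, in which Multicilin drives cells to the multiciliated fate. The set comprised every gene model whose symbol was KIF3A, KIF3B, KIF3C, KIFAP3, KIF17, DYNC2H1, DYNC2LI1, WDR34 or WDR60. Models were taken by symbol, but the list of symbols was chosen with earlier results of these data known. It held 13 of the 24383 gene models. Of the 9 symbols, 8 had a model: KIF3A, KIF3B, KIF3C, KIFAP3 and WDR60 had 2 models each, and KIF17, DYNC2LI1 and WDR34 had 1 each. No model used here carried the symbol DYNC2H1, the dynein-2 heavy chain, so the chain that holds the motor domain was not analysed here.

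A cilium has no ribosomes, and its parts are carried along its microtubules by intraflagellar transport. Kinesin-2 moves the transport trains from the base to the tip, either as a trimer of KIF3A, a second motor chain (KIF3B or KIF3C) and the adaptor KIFAP3, or as a homodimer of KIF17. Dynein-2 brings the trains back to the base and is built from a heavy chain, the light intermediate chain DYNC2LI1, the intermediate chains WDR34 and WDR60, and light chains that it partly shares with the dynein-1 of the cytoplasm.

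The study asked what the forkhead transcription factors Foxn4 and Foxj1 contribute to multiciliated cells. Poly-A RNA was sequenced from 9 sets of caps in 4 groups. The control (n = 3) received RNA for Multicilin fused to the hormone-binding part of the human glucocorticoid receptor (MCIDAS-HGR). The other groups received Multicilin RNA together with Cas9 protein and a foxj1 guide RNA (Foxj1 CRISPR, n = 2), Cas9 protein and a foxn4 guide RNA (Foxn4 CRISPR, n = 2), or, in place of Cas9 and a guide, a morpholino against foxn4, which is an antisense oligomer (n = 2). All caps were cut at stage 10, induced with 20 µM dexamethasone at mid-stage 11 and collected 9 h later at 22 °C, at about stage 18, with 20 caps per condition. No label gives Cas9 or a morpholino to the control, and every control library was re-used from an earlier study, so wherever the control is used, the effects of study, reagent and group cannot be told apart. Whether replicates were separate clutches is not stated, and the p-values therefore reflect only how far these samples spread, possibly for technical reasons. A further pair of libraries came from chromatin immunoprecipitation (ChIP-seq) of Foxn4-GFP-HGR, expressed by itself (n = 1) or together with Multicilin (n = 1).

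The libraries held between 8265823 and 22041340 estimated counts, of which the 13 models took between 6727 and 31806. Control replicate 2 was the lowest of the 3 controls in 12 of the 12 models with counts, as it was in 35.1% of the 19058 models tested. Multiciliated cell markers summed to between 40700 and 91800 CPM (counts scaled to a library of 1000000) in the controls, 28100 and 31700 in Foxj1 CRISPR, 44400 and 45400 in Foxn4 CRISPR and 27500 and 52900 with the morpholino, over 20 models of 7 symbols. TUBA1A, a tubulin, made up most of that sum (36600 to 82300 CPM in the controls), and the other markers did not move together. TEKT2 (945 to 1670 CPM in the controls), DNAI1 (671 to 1250) and SPAG6 (610 to 1490), parts of the ciliary axoneme, stood at 134 to 295 CPM in Foxj1 CRISPR. With the morpholino they also lay below the controls, at 493 to 625, 287 to 349 and 185 to 400 CPM. In Foxn4 CRISPR DNAI1 (436 to 512) and SPAG6 (505 to 544) lay below the controls, and TEKT2 (887 to 1030) overlapped with them. MCIDAS, the injected gene, stood at 297 to 1260 CPM in the controls and 1660 to 2300 in the perturbed caps, and FOXJ1 at 1210 to 2050 and 1890 to 2160. Ionocyte markers (6 of 6 symbols) summed to between 460 and 971 CPM in the controls and 398 and 692 elsewhere, and did not move together. FOXI1 stood at 38.5 to 96.0 CPM in the controls and 150 to 358 elsewhere. ATP6V1A stood at 309 to 478 and 91.7 to 236, and ATP6V1B1 at 39.4 to 153 and 0.295 to 37.3. CA12, SLC26A4 and UBP1 overlapped with the controls in at least 1 perturbed group. Small secretory cell markers (2 of 2 symbols) summed to between 8.19 and 24.7 CPM over all libraries. Neural markers (5 of 6 symbols had a model) summed to between 80.6 and 162 CPM in the controls and between 268 and 451 CPM in the perturbed caps. The neural markers did not all move together. SNAI2, at no less than 4.06 CPM in the controls, was lower in Foxj1 CRISPR (3.54 to 3.83) and with the morpholino (1.35 to 2.26). In Foxn4 CRISPR SNAI2 (3.37 to 6.1) overlapped with the controls. Mesoderm markers (3 of 4 symbols) summed to between 0.226 and 0.746 CPM in the controls and between 5.06 and 20.4 CPM elsewhere. MYF5, a muscle regulator among them, was at 0 in both morpholino libraries. Goblet cell markers (4 of 5 symbols) summed to between 5400 and 15100 CPM in the controls and between 1560 and 2980 CPM elsewhere. That sum was mostly OTOG (4110 to 12700 CPM in the controls, 1440 to 2740 elsewhere) and ITLN1 (815 to 2360 and 29.3 to 262). The other goblet markers were higher in the perturbed caps, ITLN2 at 44.3 to 47.3 and 52.3 to 122 CPM, and TFF2 at 0.113 to 0.19 and 1.09 to 3.41. The summed epidermal markers, those of ectoderm, overlapped between the controls (25800 to 29900 CPM) and the perturbed groups (18400 to 29300 CPM), but did not move together. GRHL3 stood at 918 to 1320 CPM in the controls and 1530 to 2540 elsewhere. TP63 (29.6 to 202 in the controls) was lower in Foxj1 CRISPR (16.4 to 18.9) and with the morpholino (10.2 to 24.8). KRT19 (17900 to 19500 in the controls) was lower in the same groups (15100 to 17800 and 10600 to 16900). These markers move with the groups, and their part in the results on the motor genes was not tested. In such bulk samples, fewer multiciliated cells and less motor RNA per cell cannot be told apart.

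Of the 13 models, 12 passed the low-count filter. The exception was KIF3C on scaffold 191023, at 0 estimated counts and 0 uniquely matching reads in all 9 libraries, which allows a level of up to between 0.136 and 0.363 CPM (3 counts, by library; this covers counting error only). Between 3 and 22 reads per library matched that model together with another. Levels below are CPM of estimated counts, scaled between libraries with TMM, and a fold change was called at an adjusted p under 0.05 in edgeR's quasi-likelihood test with Benjamini-Hochberg adjustment over all 19058 models.

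**Figure D1:**
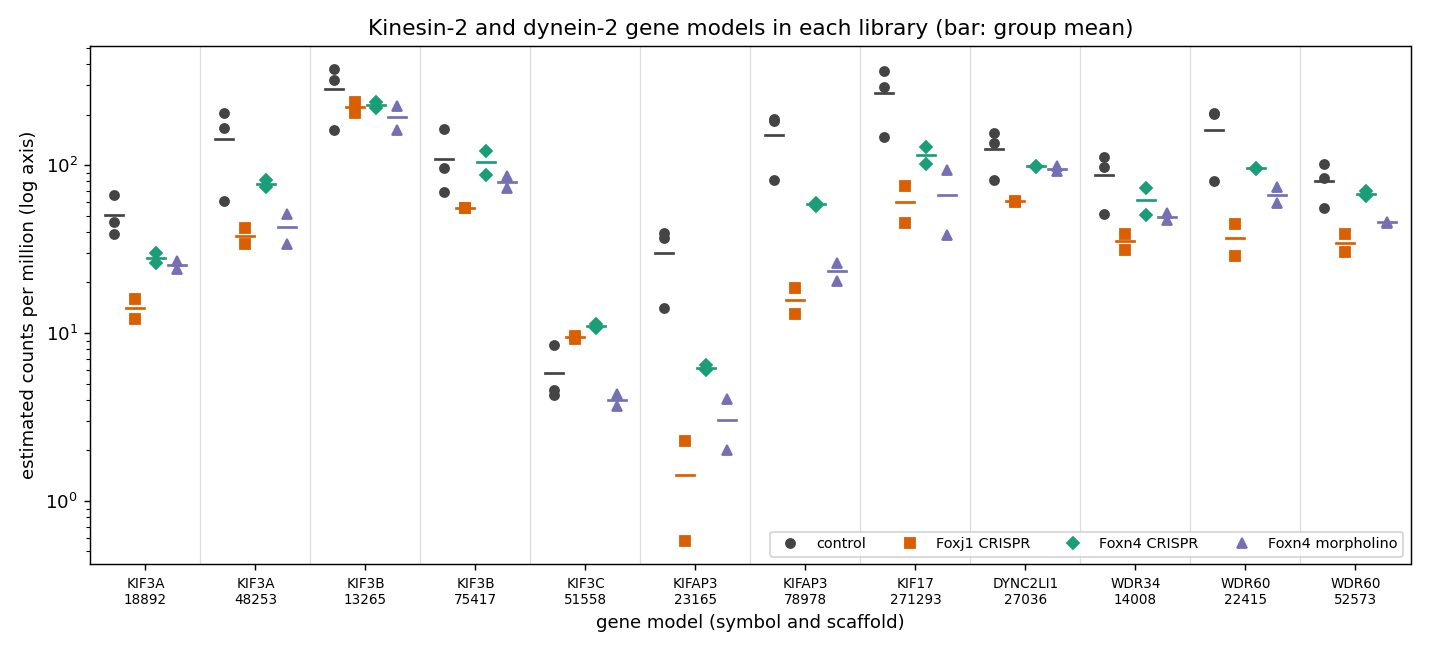
Level of each of the 12 models with counts, in CPM on a logarithmic axis, in every library (points) with the group mean (bar), by group. The 2 KIFAP3 models show the widest gap between the controls and the other groups, while the KIF3B model on scaffold 13265 overlaps in all groups.

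KIFAP3, the adaptor that joins the kinesin-2 motor chains to their cargo, fell furthest. Its main copy lies at 902205 to 980950 on the plus strand of scaffold 78978 of the version 7.1 assembly, and measured 184, 81.1 and 189 CPM in control replicates 1, 2 and 3. It measured 13.0 and 18.6 CPM in Foxj1 CRISPR, 56.9 and 59.7 in Foxn4 CRISPR, and 26.3 and 20.3 with the morpholino. All 6 perturbed libraries lay below the lowest control. The fall was 9.58-fold in Foxj1 CRISPR (log2 -3.26 ± 0.41, standard error; adjusted p = 0.000384), 2.6-fold in Foxn4 CRISPR (-1.38 ± 0.37; adjusted p = 0.024) and 6.5-fold with the morpholino (-2.7 ± 0.39; adjusted p = 0.000712). With Foxj1 CRISPR and with the morpholino the call held whichever of the 5 libraries was left out. In Foxn4 CRISPR it held only without control replicate 2 (adjusted p between 0.00222 and 0.159).

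The second KIFAP3 copy, at 750484 to 826123 on the minus strand of scaffold 23165, measured 39.2, 14.0 and 36.9 CPM in the controls. It measured 0.579 and 2.28 CPM in Foxj1 CRISPR, 6.02 and 6.42 in Foxn4 CRISPR, and 4.03 and 2.02 with the morpholino. Here too the groups did not overlap with the control. The changes were -4.39 ± 0.67 (adjusted p = 0.000949), -2.27 ± 0.58 (adjusted p = 0.0205) and -3.34 ± 0.62 (adjusted p = 0.00224) on the log2 scale. The Foxn4 CRISPR call held only without control replicate 2 (adjusted p between 0.00592 and 0.135 over the 5 fits). The Foxj1 CRISPR value rests on 8.3 and 31.3 estimated counts in the Foxj1 CRISPR libraries, of which 1 and 9 matched only this copy. Between 12.1 and 36.0% of the estimated counts of either copy matched it alone, so the split between the KIFAP3 copies is uncertain, and summed over both copies the level fell 10.3-fold, 2.77-fold and 6.77-fold (adjusted p = 0.000385, 0.0204 and 0.000751). The share of the scaffold 23165 copy was between 14.7 and 17.5% of the KIFAP3 counts in the controls, 4.4 and 11.0% in Foxj1 CRISPR, 9.5 and 9.7% in Foxn4 CRISPR and 13.3 and 9.2% with the morpholino, lower in all 6 perturbed libraries.

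KIF3A, the motor chain common to both trimeric forms, fell in both copies with Foxj1 CRISPR and with the morpholino. The copy at 7098573 to 7143489 on the plus strand of scaffold 48253 measured 203, 61.2 and 166 CPM in the controls, 33.9 and 42.0 in Foxj1 CRISPR, 81.0 and 74.4 in Foxn4 CRISPR, and 51.0 and 34.1 with the morpholino. The Foxn4 CRISPR values lay above control replicate 2, and the other perturbed libraries lay below all controls. The changes were -1.92 ± 0.45 in Foxj1 CRISPR (adjusted p = 0.0077), -0.89 ± 0.43 in Foxn4 CRISPR (adjusted p = 0.158, not called) and -1.76 ± 0.45 with the morpholino (adjusted p = 0.0101). Leaving out Foxj1 CRISPR replicate 1 ended the first call (-1.77, adjusted p = 0.0738), and leaving out morpholino replicate 2 ended the last (-1.5, adjusted p = 0.0806). Without control replicate 2 the Foxn4 CRISPR change was called (-1.25, adjusted p = 0.00877).

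The other KIF3A copy, at 6796883 to 6834919 on the minus strand of scaffold 18892, measured 66.2, 38.8 and 45.8 CPM in the controls and was lower in every perturbed library. Its levels were 12.1 and 15.9 CPM in Foxj1 CRISPR, 26.3 and 29.8 in Foxn4 CRISPR, and 24.0 and 26.8 with the morpholino. The fall was 3.58-fold in Foxj1 CRISPR (log2 -1.84 ± 0.3, adjusted p = 0.00123), a call that held without any 1 of the 5 libraries. It was -0.98 ± 0.28 with the morpholino (adjusted p = 0.0177), and -0.84 ± 0.28 in Foxn4 CRISPR just missed the threshold (adjusted p = 0.056). The morpholino call ended without control replicate 1 (-0.74, adjusted p = 0.0518) and without either morpholino library (-0.91 and -1.07, adjusted p = 0.0993 and 0.0551). The Foxn4 CRISPR change was called without control replicate 2 (-0.99, adjusted p = 0.024), with DESeq2's size factors (-0.89, adjusted p = 0.0483), with all matching reads (-1.16, adjusted p = 0.0238) and in DESeq2 (-0.89, adjusted p = 0.0254).

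KIF3B, the usual partner chain of KIF3A, was called in 1 copy and in Foxj1 CRISPR only. The more abundant copy, at 4635243 to 4645449 on the plus strand of scaffold 13265, measured 320, 161 and 371 CPM in the controls. It measured 236 and 205 CPM in Foxj1 CRISPR, 239 and 220 in Foxn4 CRISPR, and 162 and 224 with the morpholino. Every perturbed library lay within the range of the controls, and no comparison called a change (log2 -0.36 ± 0.33, -0.31 ± 0.33 and -0.56 ± 0.34; adjusted p = 0.407, 0.532 and 0.199). Without control replicate 2, however, the changes in Foxj1 CRISPR (-0.64, adjusted p = 0.0478) and under the morpholino (-0.85, adjusted p = 0.0136) were called, as was the latter with all matching reads (-0.91, adjusted p = 0.0252).

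The KIF3B copy at 7804817 to 7815627 on the plus strand of scaffold 75417 measured 163, 69.6 and 95.8 CPM in the controls, 55.6 and 55.5 in Foxj1 CRISPR, 121 and 87.2 in Foxn4 CRISPR, and 86.0 and 72.7 with the morpholino. Only the Foxj1 CRISPR libraries lay below all controls, with a change of -0.98 ± 0.35 close to the threshold (adjusted p = 0.0443). That call held in 1 of the 5 fits that left out a library, the one without control replicate 2. Without control replicate 1 it was -0.55 (adjusted p = 0.152), without control replicate 3 it was -1.05 (adjusted p = 0.0615), and without Foxj1 CRISPR replicate 1 or 2 it was -0.98 (adjusted p = 0.182 and 0.16). With the morpholino it stood at -0.46 ± 0.34 (adjusted p = 0.286), and with all matching reads at -0.94 (adjusted p = 0.0196). Between 11.9 and 18.2% of this copy's estimated counts matched it alone, the lowest range of the models that were called. Summed over both copies, KIF3B measured between 230 and 483 CPM in the controls and was not called in Foxj1 CRISPR (-0.47 ± 0.3, adjusted p = 0.229).

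KIF3C, the alternative partner of KIF3A best known from neurons, had few reads of its own, between 5 and 84 uniquely matching reads per library. Its copy at 1090764 to 1122803 on the minus strand of scaffold 51558 measured 8.5, 4.29 and 4.59 CPM in the controls, 9.55 and 9.27 in Foxj1 CRISPR, 10.7 and 11.3 in Foxn4 CRISPR, and 4.32 and 3.7 with the morpholino. On estimated counts both CRISPR groups lay above all controls, and the morpholino libraries overlapped with them. No change was called (0.7 ± 0.34, 0.93 ± 0.34 and -0.53 ± 0.36; adjusted p = 0.125, 0.074 and 0.249), though without control replicate 1 both CRISPR changes were (1.11 and 1.33; adjusted p = 0.0209 and 0.0188). With uniquely matching reads the CRISPR values were -0.89 and -0.04 (adjusted p = 0.23 and 0.967), and with all matching reads 0.07 and 0.13 (adjusted p = 0.78 and 0.614). Uniquely matching reads made up between 11.3 and 62.8% of its counts, and its morpholino change turned from -0.53 to 0.99 (adjusted p = 0.00148) when a read that fits several models was counted for every one of them, whereas with uniquely matching reads alone it was -1.77 (adjusted p = 0.0356). No direction is therefore concluded for KIF3C in any group, and the signs given for it below hold only for the fit and count column they come from.

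KIF17, the motor that acts as a homodimer, had a single model at 67349 to 91344 on the plus strand of scaffold 271293, and at least 99.8% of its counts were unique. It measured 293, 148 and 362 CPM in the controls, 45.3 and 75.4 in Foxj1 CRISPR, 101 and 129 in Foxn4 CRISPR, and 38.2 and 93.9 with the morpholino. All perturbed libraries lay below all controls. It fell 4.44-fold in Foxj1 CRISPR (-2.15 ± 0.48, adjusted p = 0.00615) and 4.03-fold with the morpholino (-2.01 ± 0.48, adjusted p = 0.00726). In Foxn4 CRISPR the value was -1.22 ± 0.46 (adjusted p = 0.0811), which was called without control replicate 2 (-1.5, adjusted p = 0.0238), with all matching reads (-1.36, adjusted p = 0.0414) and in DESeq2 (-1.27, adjusted p = 0.0238). The call in Foxj1 CRISPR ended without its replicate 1 (-1.83, adjusted p = 0.0703), and that with the morpholino without its replicate 1 (-1.52, adjusted p = 0.0648).

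WDR60, an intermediate chain of dynein-2, fell in both copies in Foxj1 CRISPR and with the morpholino. Its copy at 6185122 to 6230170 on the plus strand of scaffold 22415 measured 204, 80.4 and 201 CPM in the controls, 28.9 and 44.4 in Foxj1 CRISPR, 96.3 and 94.9 in Foxn4 CRISPR, and 74.3 and 59.1 with the morpholino. The Foxj1 CRISPR and morpholino libraries lay below all controls. The changes were -2.14 ± 0.41 in Foxj1 CRISPR (adjusted p = 0.00282) and -1.28 ± 0.39 under the morpholino (adjusted p = 0.0229), against -0.76 ± 0.38 in Foxn4 CRISPR (adjusted p = 0.173), which was called without control replicate 2 (-1.08, adjusted p = 0.0134). The first call held without any 1 of the 5 libraries, whereas the morpholino call held only without control replicate 2 (values -1.62 to -1.08, highest adjusted p = 0.127).

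The second WDR60 copy, at 8402441 to 8438143 on the minus strand of scaffold 52573, measured 102, 55.6 and 84.3 CPM in the controls. It measured 30.4 and 38.7 CPM in Foxj1 CRISPR, 70.2 and 65.1 in Foxn4 CRISPR, and 45.4 and 46.0 with the morpholino. Again the Foxj1 CRISPR and morpholino libraries lay below all controls and the Foxn4 CRISPR libraries did not. The changes were -1.23 ± 0.29 (adjusted p = 0.00734), -0.26 ± 0.28 (adjusted p = 0.526) in Foxn4 CRISPR, and -0.82 ± 0.28 with the morpholino (adjusted p = 0.0357). The Foxj1 CRISPR call ended without its replicate 1 (-1.06, adjusted p = 0.0891), and the morpholino call held only without control replicate 2 (values -1.05 to -0.62, highest adjusted p = 0.133). The scaffold 22415 copy made up between 59.1 and 70.4% of the WDR60 counts in the controls and 48.8 and 53.4% in Foxj1 CRISPR, so the balance of the WDR60 copies was nearer to even there. A difference in change between copies was not tested.

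WDR34, the other intermediate chain, lies at 293716 to 299854 on the minus strand of scaffold 14008, and all of its counts were unique. It measured 97.5, 51.1 and 112 CPM in the controls, 39.1 and 31.3 in Foxj1 CRISPR, 73.4 and 50.6 in Foxn4 CRISPR, and 46.8 and 52.0 with the morpholino. Both Foxj1 CRISPR libraries lay below all controls, as did Foxn4 CRISPR replicate 2 and morpholino replicate 1, while the other library of each of these groups lay within the control range. The change was -1.31 ± 0.35 in Foxj1 CRISPR (adjusted p = 0.0133), which ended without either of its libraries (-1.47 and -1.16; adjusted p = 0.0616 and 0.0996). It was -0.49 ± 0.33 in Foxn4 CRISPR (adjusted p = 0.305) and -0.82 ± 0.34 under the morpholino (adjusted p = 0.0721). The morpholino change was called without control replicate 2 (-1.1, adjusted p = 0.0069), in DESeq2 (-0.9, adjusted p = 0.0357) and with all matching reads (-1.21, adjusted p = 0.0098).

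DYNC2LI1, the light intermediate chain that stabilises the heavy chain, lies at 1941401 to 1971169 on the plus strand of scaffold 27036. It measured 136, 81.9 and 156 CPM in the controls, 60.3 and 61.5 in Foxj1 CRISPR, 99.2 and 98.0 in Foxn4 CRISPR, and 98.4 and 92.0 with the morpholino. It was below all controls in Foxj1 CRISPR alone, with a 2.04-fold fall (-1.03 ± 0.28, adjusted p = 0.0152) that ended without either Foxj1 CRISPR library (-1.02 and -1.05; adjusted p = 0.107 and 0.0833). In Foxn4 CRISPR and with the morpholino it stood at -0.34 ± 0.27 and -0.39 ± 0.27 (adjusted p = 0.39 and 0.271). The morpholino value was called without control replicate 2 (-0.63, adjusted p = 0.0273), and it was also called when the counts were corrected for effective length, as given below.

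**Figure D2:**
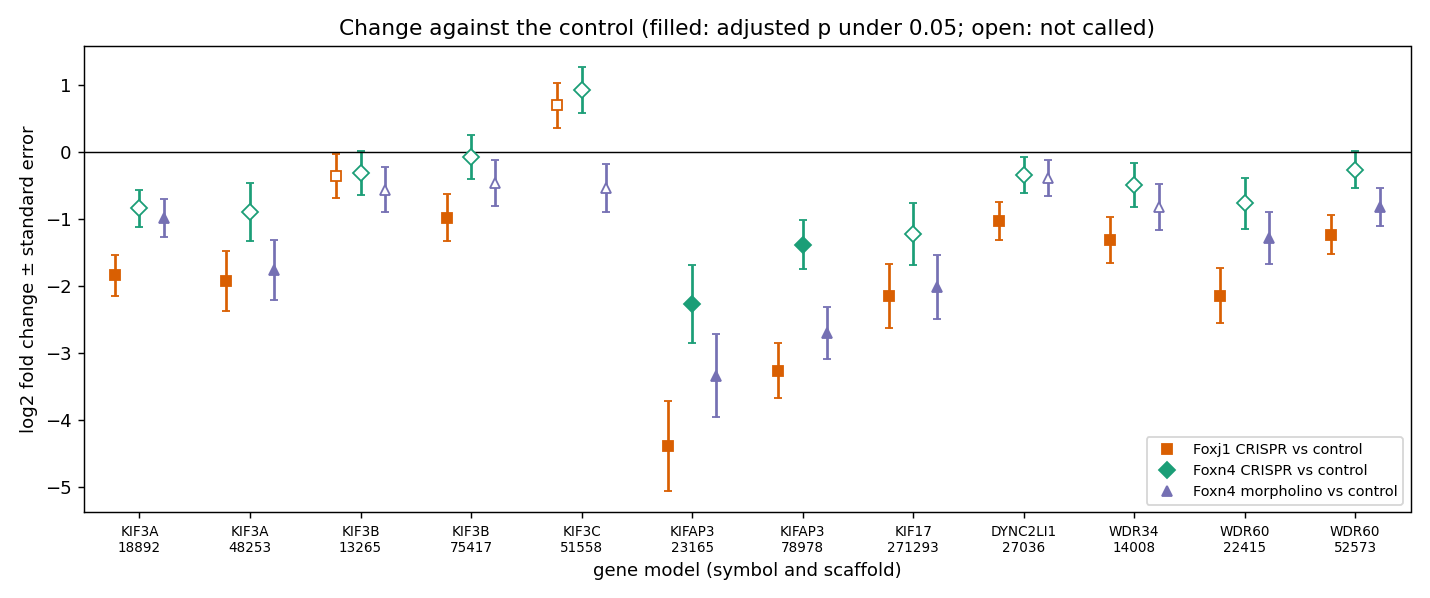
Log2 fold change against the control with its standard error (edgeR) for the 12 tested models in Foxj1 CRISPR, Foxn4 CRISPR and Foxn4 morpholino; filled symbols passed an adjusted p of 0.05 and open ones did not. Foxj1 CRISPR has 10 filled symbols, Foxn4 CRISPR 2 and the morpholino 7, all below 0.

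Counted over the set, 10 of the 12 tested models fell in Foxj1 CRISPR, 0 rose and 2 were not called, the KIF3B copy on scaffold 13265 and KIF3C. By the same rule 20.7% of all tested models fell and 19.8% rose. Calls over all models in either direction numbered 7712, and 6472, 8250 and 6509 without control replicates 1, 2 and 3. They were fewer without either Foxj1 CRISPR library, which leaves a single library in that group. All Foxj1 CRISPR libraries lay below all controls in 10 of the 12 models, against 31.1% of all tested models. The median log2 change was -1.57 over the 12 models and 0.01 over all tested models. The count was 4 without Foxj1 CRISPR replicate 1, namely both KIFAP3 copies, the KIF3A copy on scaffold 18892 and the WDR60 copy on scaffold 22415. It was between 7 and 11 without any other library, and KIF3C was called as higher without control replicate 1.

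In Foxn4 CRISPR 2 of the 12 models fell, both of KIFAP3, 0 rose and 10 were not called, where 10.7% of all tested models fell and 12.6% rose. Libraries did not overlap with the control and lay below it in 4 models, both copies of KIFAP3, KIF17 and the KIF3A copy on scaffold 18892, against 26.8% of all tested models. The median was -0.62 against -0.03 over all models. Calls over all models in either direction numbered 4424, and 3415, 5048 and 3492 without control replicates 1, 2 and 3, and 5218 in DESeq2. They were fewer without either Foxn4 CRISPR library, which leaves a single library in that group. The 2 calls rested on small margins. The count dropped to 0 when control replicate 1, control replicate 3 or either Foxn4 CRISPR library was left out, and was 6 without control replicate 2, and 4 in DESeq2, and KIF3C was called as higher without control replicate 1.

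With the morpholino 7 of the 12 models fell, 0 rose and 5 were not called, where 21.1% of all tested models fell and 23.9% rose. The 7 were both copies of KIFAP3, KIF3A and WDR60, and KIF17, and the same number lay below all controls, against 28.4% of all tested models. Calls over all models in either direction numbered 8571, and 7431, 9008 and 7479 without control replicates 1, 2 and 3. They were fewer without either morpholino library, which leaves a single library in that group. The median was -0.9 against 0.08 over all models. The count was 4 without control replicate 1, 3 without either morpholino library, 5 without control replicate 3 and 10 without control replicate 2. KIFAP3 on both scaffolds was called in each of these fits. With copies summed, 6 of 8 genes fell in Foxj1 CRISPR, 1 in Foxn4 CRISPR and 4 with the morpholino, and 0 rose. In the same order, 5173, 2871 and 5658 of all 12027 symbols or models without a symbol were called in either direction.

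The perturbed groups all belong to the same study and were compared with each other directly. All 12 models were higher in Foxn4 CRISPR than in Foxj1 CRISPR, where 49.5% of all tested models were higher. The median log2 difference was 0.95, and in 11 of the 12 the libraries did not overlap (26.9% of all tested models lay above in the same way). None was called in the main edgeR fit over all 4 groups. With only those 2 groups edgeR called 3, beside 705 over all models in either direction. DESeq2 called 3, beside 734. Over all models, the main edgeR fit called 1.43% higher and 0.021% lower. The KIFAP3 copy on scaffold 78978 was nearest, 3.68-fold higher in Foxn4 CRISPR (1.88 ± 0.4, adjusted p = 0.0519), and summed over its copies KIFAP3 was called (1.89 ± 0.41, adjusted p = 0.0452). It was the only one of the 8 genes called when copies were summed, beside 284 in either direction over all 12027 symbols or models without a symbol. The KIF3B copy on scaffold 13265 was at the other end of the range, 0.06 ± 0.36.

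On estimated counts the morpholino libraries held less of all 12 models than the Foxn4 CRISPR libraries, where 47.8% of all tested models were lower. The median was -0.54, and 8 of the 12 lay below without overlap (28.1% of all tested models). None was called in the main edgeR fit. With only those 2 groups edgeR called 2 lower, beside 1239 over all models in either direction. DESeq2 called 2 lower, beside 2136. Over all models, the main edgeR fit called 2.82% lower and 2.65% higher. Those nearest the threshold were KIF3C (-1.46 ± 0.39, adjusted p = 0.058) and the KIFAP3 copy on scaffold 78978 (-1.33 ± 0.4, adjusted p = 0.0777). KIF3C turned to 0.86 (adjusted p = 0.0245) with all matching reads. With the effective-length corrected counts described below, KIF3A on scaffold 18892 stood higher with the morpholino (0.68), not called. So did KIF3B on scaffolds 75417 and 13265 (0.29 and 0.07), also not called.

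Against Foxj1 CRISPR, the morpholino libraries were higher in 10 of the 12 models, where 53.5% of all tested models were higher. The median was 0.5, and 7 of the 12 lay above without overlap (30.6% of all tested models). None was called in the main edgeR fit, while DESeq2 called 1, lower, beside 2322 over all models in either direction. Over all models, the main edgeR fit called 4.7% higher and 2.7% lower. KIFAP3 on scaffold 78978 stood at 0.56 ± 0.39 (adjusted p = 0.426) and KIF17 at 0.13 ± 0.49 (adjusted p = 0.899). KIF3C stood at -1.23 ± 0.39 (adjusted p = 0.0826) and turned to 0.92 (adjusted p = 0.0135) with all matching reads. With groups of 2 libraries, a p that misses the threshold does not show that the levels were alike.

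The morpholino results depend on which count column of the deposited files is used. The files give, beside the estimated count, a count corrected for effective length. That is a length which eXpress, the counting program, estimated for each model in each library, and it exceeded the model length for some models. For DYNC2LI1 the effective length was 2.04 and 2.16 times the model length in the morpholino libraries and between 0.78 and 0.84 times in the other 7. Only 55 of the 19935 models compared (0.28%) shared that pattern of 2 or more in both morpholino libraries and under 1 in all others. KIF3A went the other way, with 0.65 to 0.77 in the morpholino libraries and 1.04 to 1.23 elsewhere.

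With the corrected counts, an alternative chosen after the data were seen, DYNC2LI1 was called as lower with the morpholino (-1.57, adjusted p = 0.00198). The KIF3A copies on scaffolds 18892 and 48253 lost their calls (-0.01 and -0.95; adjusted p = 0.984 and 0.095), as did the WDR60 copies on scaffolds 22415 and 52573 (-0.7 and -0.56; adjusted p = 0.161 and 0.121). KIF3B on scaffold 75417, not called either way, moved from -0.46 to 0.34. KIFAP3 (-3.25 and -2.56; adjusted p = 0.0029 and 0.000934) and KIF17 (-1.38, adjusted p = 0.027) kept theirs, so that 4 models were called in place of 7. Over all models in either direction, 8729 were called in place of 8571. Against Foxj1 CRISPR the KIF3A copy on scaffold 18892 was then higher with the morpholino (1.67, adjusted p = 0.0101), and against Foxn4 CRISPR DYNC2LI1 was lower (-1.21, adjusted p = 0.035), as was KIF3C (-1.51, adjusted p = 0.0446). KIFAP3 and KIF17 are the genes whose fall with the morpholino was called on either count.

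**Figure D3:**
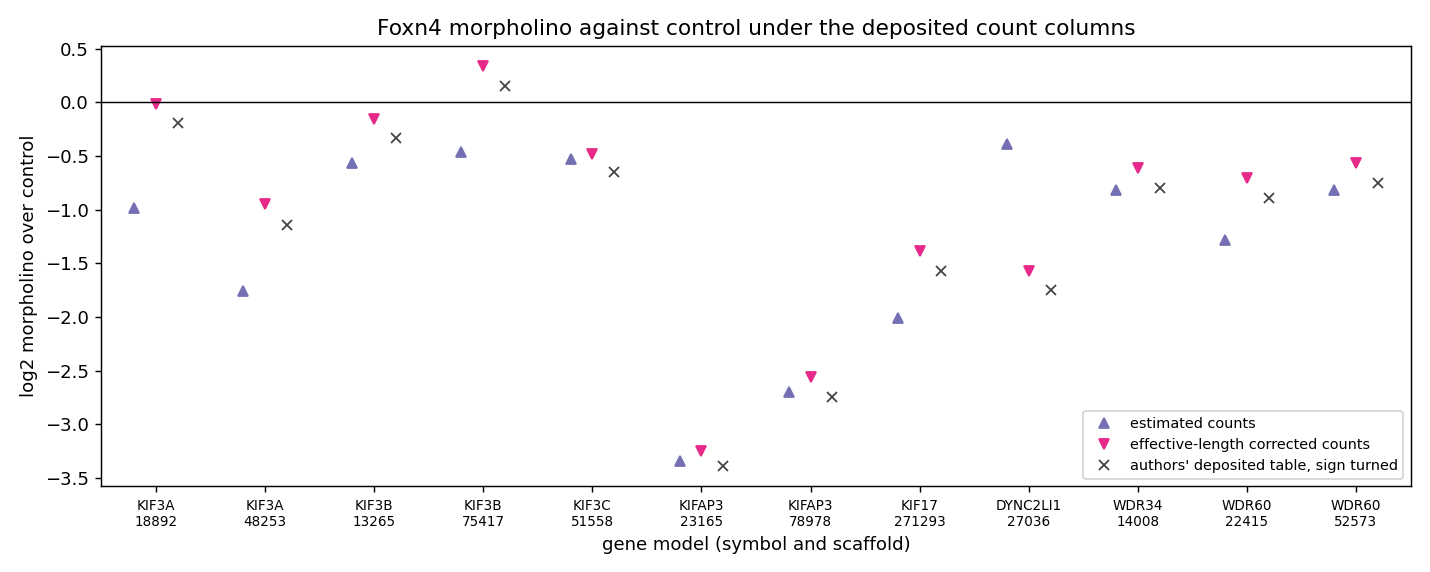
Log2 change of each model with the Foxn4 morpholino against the control from the estimated counts, from the effective-length corrected counts (both edgeR) and from the authors' deposited table with its sign turned. For DYNC2LI1 the first value is -0.39 and the others are -1.57 and -1.75, whereas for KIFAP3 on scaffold 78978 they are -2.7, -2.56 and -2.74.

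The authors' deposited tables give each model's mean normalised level per group and the log2 of control over perturbed. In the authors' deposited table for the morpholino, 3 of the 12 listed motor models had an adjusted p under 0.05, where 17.5% of all listed models had. The authors' deposited table gave DYNC2LI1 a mean of 714 with the morpholino and 2400 in the control (adjusted p = 0.00653), and KIFAP3 on scaffold 78978 a mean of 421 and 2810 (adjusted p = 0.00566). KIF17, called above on either count, had an adjusted p of 0.144 in the authors' deposited table for the morpholino. The libraries behind the control of the Foxj1 table are not named, and they may not be the 3 used here. In the authors' deposited table for Foxj1, 6 of 13 had an adjusted p under 0.05 against 13.7% of all listed models: both KIF3A copies, both KIFAP3 copies, KIF17 and the WDR60 copy on scaffold 22415. In the authors' deposited table for Foxn4 CRISPR, 0 of 12 had one against 8.73% of all, and KIFAP3 on scaffold 23165 came nearest (adjusted p = 0.0704). Across all models, the authors' deposited log2 values lay closer to the corrected than to the estimated counts for Foxn4 CRISPR (median absolute difference 0.015 against 0.088) and for the morpholino (0.017 against 0.31). For Foxj1 the authors' deposited table lay about as far from both (0.166 and 0.16), and its overall mean gave the Foxj1 CRISPR group a weight of 0.286, where the authors' deposited Foxn4 tables gave the perturbed group 0.4. A weight of 0.4 is that of 2 libraries among 5, and 0.286 that of 2 among 7.

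Levels of different genes can be set side by side only per length, here as counts per kilobase of effective length scaled to 1000000 over all models and summed over the copies of a gene (TPM). In the controls KIF3B stood at 162.45 ± 49.55 (SD, n = 3), KIF3A at 123.59 ± 49.97, DYNC2LI1 at 111.34 ± 24.09, KIF17 at 102.32 ± 32.85 and KIFAP3 at 102.15 ± 37.01. WDR60 at 79.96 ± 26.97 and WDR34 at 68.73 ± 20.43 followed. Each of these neighbours differed by less than the spread between replicates, and KIF3C at 1.7 ± 0.71 stood far below all of them. Counting only uniquely matching reads changed this order, with DYNC2LI1 at 162.22 and KIF17 at 155.04 highest and KIF3B at 90.03. WDR34, KIF17 and DYNC2LI1 have no second copy with which to share reads. For DYNC2LI1, however, only between 78.8 and 96.9% of the estimated counts matched it alone.

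In Foxj1 CRISPR the order widened. KIF3B stood at 153.25 ± 13.56 TPM (n = 2) there, DYNC2LI1 at 69.07 ± 0.54, KIF3A at 46.97 ± 6.26 and KIFAP3 at 12.19 ± 3.55. In Foxn4 CRISPR KIF3B stood at 174.6 ± 21.85, KIF3A at 84.53 ± 0.41 and KIFAP3 at 40.52 ± 1.67. With the morpholino KIF3B stood at 187.62 ± 19.6, KIF3A at 87.3 ± 22.27 and KIFAP3 at 18.38 ± 5.32. KIFAP3 was thus the lowest of these kinesin-2 genes in all perturbed groups apart from KIF3C. In the controls KIFAP3 was level with KIF17 only per effective length. Per model length KIFAP3 was already the lowest there apart from KIF3C, at 94.37 ± 33.33 against 138.94 ± 44.24 for KIF17. With uniquely matching reads KIFAP3 was also the lowest in the controls apart from KIF3C, below KIF3B at 90.03. Its rank in the perturbed groups is therefore not by itself a change from the controls. The TPM values are scaled within each library without TMM and serve to compare genes within a group. Between groups they can differ in direction from CPM. Summed over copies, KIF3B stood at 393 CPM in the controls and 273 with the morpholino, while its TPM was higher with the morpholino.

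The ratio of KIF3B to KIF3A per effective length was between 1.21 and 1.53 in the controls, 2.79 and 3.83 in Foxj1 CRISPR, 1.89 and 2.24 in Foxn4 CRISPR, and 1.96 and 2.43 with the morpholino. The ratio of the adaptor KIFAP3 to KIF3A was between 0.77 and 0.89 in the controls, 0.23 and 0.29 in Foxj1 CRISPR, 0.46 and 0.5 in Foxn4 CRISPR, and 0.2 and 0.21 with the morpholino. In both ratios every perturbed library lay outside the range of the controls, per effective length and per model length. With uniquely matching reads this held for KIFAP3 to KIF3A (0.47 to 0.59 in the controls, 0.11 to 0.31 elsewhere). For KIF3B to KIF3A it held in the CRISPR groups (0.82 to 1.12 in the controls, 1.89 and 2.85, and 1.23 and 1.24), but 1 of the morpholino libraries, at 1.03, lay within the control range and the other at 1.67. The smallest two-sided p that an exact permutation of 2 against 3 libraries can give is 0.2, so the ratios were not tested. A ratio within a library shows unequal change, not which gene kept its level. Within dynein-2 the ratio of WDR60 to WDR34 was between 1.06 and 1.29 in the controls and overlapped with the other groups (0.64 and 1.09, 0.94 and 1.34, and 1.01 and 1.26), though with uniquely matching reads Foxj1 CRISPR, at 0.42 and 0.76, lay below the controls (0.82 to 1.0). The ratio of DYNC2LI1 to WDR34 was between 1.53 and 1.85 in the controls and 0.78 and 0.89 with the morpholino per effective length. Per model length it was between 1.3 and 1.49 in the controls and 1.65 and 1.96 with the morpholino, so its direction turns with the length used.

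**Figure D4:**
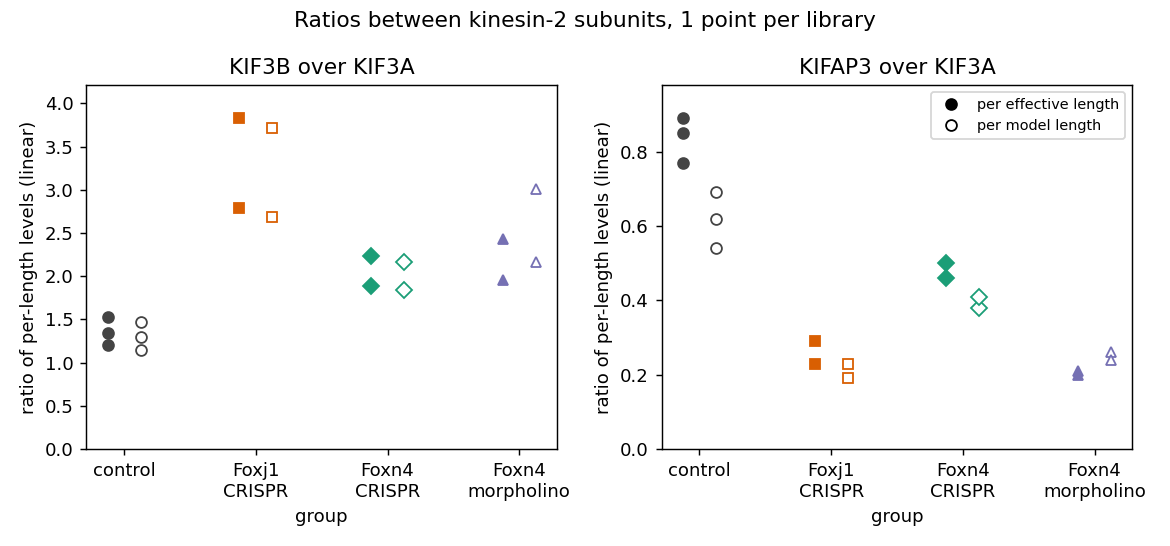
Ratio of the per-length levels of KIF3B to KIF3A (left) and of KIFAP3 to KIF3A (right), 1 point per library, on linear axes, per effective length (filled) and per model length (open). Per effective length the controls lie between 1.21 and 1.53 on the left and between 0.77 and 0.89 on the right, and no perturbed library reaches into these ranges.

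The trains that these motors pull are built from the complexes IFT-A and IFT-B, and the BBSome loads membrane proteins on them. In Foxj1 CRISPR 19 of 19 IFT-B models fell (median -1.72), as did 5 of 6 of IFT-A (-1.43), 5 of 7 of the BBSome (-1.29) and 7 of 10 of cargo carriers (-1.27), with 0 called higher, where 20.7% of all tested models fell. IFT74, an IFT-B protein that binds tubulin with its partner, fell from 161 to 16.1 CPM on scaffold 68934 (-3.33 ± 0.43, adjusted p = 0.000429). In Foxn4 CRISPR 2 of 19 IFT-B models, 2 of 6 IFT-A models, 0 of 7 BBSome models and 1 of 10 cargo models fell, where 10.7% of all tested models fell, so that for IFT-B, the BBSome and cargo the share was at or below that of all models. The IFT-A member WDR19 fell from 358 to 153 CPM (-1.22 ± 0.37, adjusted p = 0.0389). With the morpholino 12 of 19, 5 of 6, 3 of 7 and 5 of 10 fell, where 21.1% of all tested models fell, and 1 IFT-A model, TTC21B on scaffold 43242, rose (1.3 ± 0.34, adjusted p = 0.0109). The list counts here and below come from estimated counts alone. They were not repeated with the effective-length corrected counts, on which the morpholino results for the motor genes depend.

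Cytoplasmic motors were counted in the same way. Of all tested models 19.8% rose in Foxj1 CRISPR, 12.6% in Foxn4 CRISPR and 23.9% with the morpholino, beside the shares that fell. Of 8 models of the dynein-1 heavy, intermediate and light intermediate chains, 0 fell and 1 rose in Foxj1 CRISPR (DYNC1H1 on scaffold 236382, 0.94 ± 0.3, adjusted p = 0.0296), 1 fell in Foxn4 CRISPR, and 1 fell and 1 rose with the morpholino. Of 14 models of kinesins outside kinesin-2, 4 fell and 6 rose in Foxj1 CRISPR, 1 fell and 1 rose in Foxn4 CRISPR, and 3 fell and 5 rose with the morpholino. KIF11, the motor of the mitotic spindle, rose in Foxj1 CRISPR (scaffold 7555, 1.58 ± 0.42, adjusted p = 0.013). Light chains of dynein-1 and dynein-2 were divided. Of 11 models 5 fell and 1 rose in Foxj1 CRISPR, with DYNLRB2 falling from 387 to 59.5 CPM on scaffold 62355 (-2.7 ± 0.32, adjusted p = 0.000317) and DYNLL2 rising from 0.523 to 2.11 CPM (1.99 ± 0.57, adjusted p = 0.0195). With the morpholino 2 fell and 1 rose, and in Foxn4 CRISPR 0 fell and 1 rose, in both cases DYNLL2 (3.45 ± 0.56 and 1.91 ± 0.59; adjusted p = 0.00116 and 0.0408). DYNLL2 stood under 5 CPM in the controls and in both CRISPR groups. It met the limit of 5 CPM for naming only through the morpholino group, where it was highest, so its naming depended on that rise.

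Dyneins that bend motile cilia, which are cargo of the transport trains, fell in 7 of 7 models in Foxj1 CRISPR (median -2.94), 4 of 7 in Foxn4 CRISPR (-0.99) and 7 of 7 with the morpholino (-1.71). In the same order, 20.7, 10.7 and 21.1% of all tested models fell and 19.8, 12.6 and 23.9% rose. Of 14 models of regulators, 4 fell and 1 rose in Foxj1 CRISPR, 0 fell and 1 rose in Foxn4 CRISPR, and 2 fell and 3 rose with the morpholino. Among regulators, RFX3, a transcription factor of cilia genes, fell in Foxj1 CRISPR (-2.64 ± 0.52, adjusted p = 0.00329) and under the morpholino (-1.66 ± 0.49, adjusted p = 0.0192) on scaffold 106782. MAK, a kinase that limits transport and length in cilia, fell with the morpholino (-0.86 ± 0.27, adjusted p = 0.0254), and the related ICK rose in Foxn4 CRISPR (1.09 ± 0.32, adjusted p = 0.0327).

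The models whose level over the 9 libraries was most like that of a motor gene were found by Pearson correlation of log2(CPM + 1) among 12609 models, a description over libraries that fall into groups and share their depth. UNC119B, a carrier of lipid-modified cargo, was nearest to KIF3A on scaffold 48253 (r = 0.996). AGBL5, an enzyme that trims tubulin tails, and KIF9, a kinesin of motile cilia, were nearest to KIFAP3 on scaffold 78978 (r = 0.993 each). TCTEX1D1, a gene of the dynein light chain family, was nearest to DYNC2LI1 (0.985), IQCB1, a ciliary base protein, to WDR34 (0.986), and SOS1 and MDM1 to WDR60 on scaffold 22415 (0.991 and 0.99). KIF17 was most like BSPRY (0.993). KIF3B on scaffold 13265 was most like KAT2A (0.975), a histone acetyltransferase on the same scaffold, and KIF3C most like TOMM40 (0.981).

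Foxn4 ChIP-seq gave 65258 peaks from 7387992 tags when Foxn4 was given alone and 29673 peaks from 4911853 tags when it was given with Multicilin. There was 1 library per condition, so the lists have no replicate check. A peak centre lay within 1000 bp of the start of 7 of the 13 motor models with Foxn4 alone (53.8%), against 53.3% of all 24383 models, and of 5 of 13 with Multicilin (38.5%), against 31.4%. Among the 19058 models tested for RNA the shares were 63.9 and 38.9%. Within 1000 bp these shares lie near each other, but other settings gave wider gaps. Counting only the upper part of each list by score, 6 of 13 (46.2%) stood against 34.3% of all models with Foxn4 alone and 5 of 13 (38.5%) against 16.2% with Multicilin. Within 5000 bp with Multicilin 61.5% of the motor models had a peak against 40.8% of all, and within 10000 bp 76.9% against 47.8%. Those wider gaps are against all 24383 models, with no share taken among the models tested for RNA. These differences were not tested.

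The 5 models with a peak in both lists were those of KIF3A on scaffold 48253, both KIF3B copies, DYNC2LI1 and WDR60 on scaffold 22415. At KIF3A the centres lay 105 and 75 bp upstream of the start (Foxn4 alone and with Multicilin), and the second peak, with the authors' score of 55.0, was within the top 2.99% of its list. At KIF3B on scaffold 75417 they lay 20 and 97 bp upstream, with the second within the top 5.26%, and at KIF3B on scaffold 13265 they lay 464 and 477 bp downstream, the second within the top 5.63%. At DYNC2LI1 the centres lay 114 and 124 bp downstream, within the top 11.0 and 18.6% of their lists, and at WDR60 on scaffold 22415 41 and 39 bp upstream. On estimated counts none of these 5 models was called in Foxn4 CRISPR. With the morpholino KIF3A on scaffold 48253 and WDR60 on scaffold 22415 were called lower, and DYNC2LI1 and both KIF3B copies were not called. A link between peaks and changes was not tested.

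KIFAP3 had weaker or more distant peaks. At its copy on scaffold 23165 a peak centre lay 76 bp upstream with Foxn4 alone, with 17.0 tags and a score within the top 58.7% of the list, and no peak lay within 1000 bp with Multicilin. Another model without a symbol starts 61 bp away on the opposite strand, so that peak cannot be assigned to either. At the copy on scaffold 78978 the nearest centres lay 1606 and 1685 bp downstream of the start, inside the gene. WDR60 on scaffold 52573 had a peak 147 bp downstream with Foxn4 alone only. The nearest peaks to KIF17 lay 8439 bp upstream with Foxn4 alone and 9430 bp downstream with Multicilin, those to WDR34 11739 and 11798 bp upstream, and those to KIF3A on scaffold 18892 4184 and 3956 bp upstream, beyond the start of CCNI, 3600 bp away on the opposite strand.

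**Figure D5:**
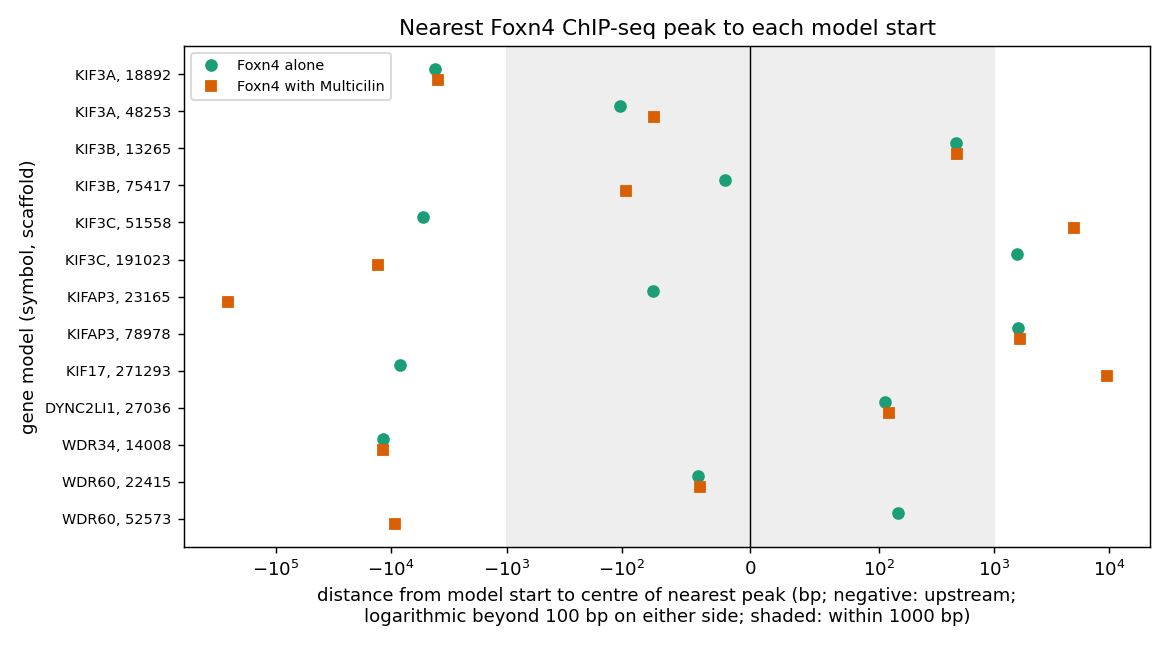
Distance in bp from the start of each of the 13 models to the centre of the nearest Foxn4 peak, for Foxn4 alone and Foxn4 with Multicilin, on an axis that is logarithmic beyond 100 bp on either side, with negative values upstream and the shaded band within 1000 bp. With Foxn4 alone 7 models fall in the band and with Multicilin 5.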

How the data were processed

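RNA values were deposited as 1 table per library on gene models of the version 7.1 assembly. Per the file headers, each holds estimated counts with uniquely matching counts, all matching counts and effective-length corrected counts; the submitters' processing notes name STAR, eXpress, DESeq, Bowtie2 and HOMER, all without a version. The deposited comparison tables hold the authors' mean signal per group, fold ratio, log2 ratio and p-value; their columns do not name the groups, which were taken from the order in the tables' names, and the sign of log2 was checked against the counts. In the deposited peak lists, HOMER's tag counts, score, fold ratio over input and p-value are the authors'. Per the file headers, peaks passed a false discovery rate of 0.001 and 4-fold enrichment over input and over the local 10000 bp.

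Estimated counts were rounded, filtered with filterByExpr, scaled with TMM and tested by quasi-likelihood in edgeR 4.0.16 (R 4.3.3) over all 4 groups (5 residual degrees of freedom), with Benjamini-Hochberg adjustment over 19058 models; the code was tested on simulated data. Models without a symbol, holding 1.7 to 2.43% of counts, were kept. Alternatives were DESeq2 1.42.0, other scalings, filters and count columns, summed copies, a replicate block and each library left out. The libraries were not strand-specific, and no motor model overlaps another model. All motor models were named. From each other list the largest called rise and the 2 largest called falls could be named, among models over 5 CPM in a group. For likeness, the 3 highest correlations per gene were taken among models of at least 5 CPM. The motor genes and lists were chosen with earlier results of these data known. A planned search of promoter motifs was not run.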

Additional observations from a re-analysis of the deposited data

How the results depend on the processing

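Out of 12 tested motor models, the number called lower in Foxj1 CRISPR was 10, and it ranged from 4 to 11 when each library was left out in turn; the number called higher ranged from 0 to 1. In Foxn4 CRISPR it was 2, with 1 from uniquely matching reads, 4 from all matching reads and 4 in DESeq2, and it ranged from 0 to 6 when a library was left out (higher, 0 to 1). With the morpholino it was 7, with 4 from effective-length corrected counts and a range from 3 to 10 when a library was left out, and 1 was called higher from all matching reads. Foxn4 CRISPR against Foxj1 CRISPR had 0 called, but 1 higher without the low-count filter, 3 with only those 2 groups and 3 in DESeq2. The morpholino against Foxn4 CRISPR had 0, but 2 lower from all matching reads, from corrected counts, with only those 2 groups and in DESeq2, and 1 higher from all matching reads. Against Foxj1 CRISPR it had 0, but 1 lower in DESeq2 and 1 higher from all matching reads and from corrected counts. KIF3C on scaffold 51558 reversed with all matching reads, to 0.99 against the control, 0.86 against Foxn4 CRISPR and 0.92 against Foxj1 CRISPR. The cause was not tested. Upper-quartile scaling moved the median of all models from 0.01 to 0.15 in Foxj1 CRISPR and from 0.08 to 0.2 with the morpholino. Of the models with a peak within 1000 bp, 7 became 12 within 10000 bp with Foxn4 alone (72.5% of all models), and 5 became 8 within 5000 bp (40.8%) and 10 within 10000 bp (47.8%) with Multicilin.

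Nothing in the labels ties libraries of the same number, so they were not treated as pairs. Same-numbered libraries deviated with a correlation between -0.14 and -0.02 from control to perturbed groups, 0.51 between Foxj1 CRISPR and Foxn4 CRISPR, 0.17 between Foxj1 CRISPR and the morpholino and 0.09 between Foxn4 CRISPR and the morpholino. With a replicate block 8 models in place of 10 were called lower in Foxj1 CRISPR (lost: DYNC2LI1, adjusted p = 0.0512, and KIF3B on scaffold 75417, 0.0547). It was 0 in place of 2 in Foxn4 CRISPR (both KIFAP3 copies lost, 0.0784 and 0.0872) and 5 in place of 7 with the morpholino (both WDR60 copies lost, 0.0901 and 0.095). Over all models, Foxn4 CRISPR against Foxj1 CRISPR called 276, with 0 under the replicate block, 0 without Foxj1 CRISPR replicate 1, 429 without the low-count filter, 705 with only those 2 groups and 734 in DESeq2.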
